A study of Mus musculus with 4 samples.

Results

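The regions described here are stretches of open chromatin that lie away from gene starts, were found in both GFP- (non-endothelial) and GFP+ (endothelial) heart nuclei, and were weaker in the GFP+ nuclei. They were chosen by their measured values. Overlapping peaks of the GFP- and GFP+ lists were merged into 86649 regions, of which 53996 held a peak of both lists and 40904 of those had all summits more than 1000 bp from any protein-coding transcript start (shared distal regions). Each peak was ranked from 0 to 100 by its area within its own list, and the best rank of each list was taken per region. The GFP+ rank was at least 20 points below the GFP- rank in 5745 regions, or 14.0% of the shared distal regions, and these are the weaker regions. The opposite difference, GFP+ at least 20 points above GFP-, was found in 2506 regions (6.13%), and 32653 regions differed by less than 20 points. Among the 13092 shared regions nearer to a transcript start, 764 were lower by 20 points or more in GFP+ (5.84%). Because the GFP- list is longer, ranks were also taken over as many of its strongest peaks as the GFP+ list holds, which left 3082 weaker regions (7.53%). The opposite difference was not recounted with that ranking. Whether weaker regions outnumber stronger ones at equal list lengths was thus not tested. The difference in rank is a description of how the regions were selected, and no test is attached to it.

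ATAC-Seq was performed on FACS-sorted nuclei from hearts of male C57BL/6 mice aged 8 to 12 weeks. All mice carried the NuTRAP reporter, which labels nuclei with GFP after Cre recombination, together with Cdh5-Cre, which is driven by the promoter of the endothelial cadherin gene. GFP+ nuclei are thus those of cells with a history of Cdh5-Cre activity, and GFP- nuclei are a mixture of all other diploid heart nuclei, including cardiomyocytes, fibroblasts, pericytes, smooth muscle and immune cells. There were 2 replicate libraries of each population, but each deposited list was called by the authors from both replicates together, so no value has a replicate error and no p-value is given. The GFP- list held 78912 peaks and the GFP+ list 65008, and reads per library were not analysed here. Because GFP- nuclei are a mixture, fewer cells with an open region and less openness per cell cannot be told apart.

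Distal open regions are mostly enhancers, DNA elements bound by transcription factors that act on genes at a distance, and insulators bound by CTCF. Enhancers differ between cell types far more than promoters do. In the heart, AP-1 (Fos and Jun proteins), C/EBP, TEAD and TCF21 act in fibroblasts and other stromal cells, MEF2, GATA4, NKX2-5 and TBX5 act in cardiomyocytes, and ETS factors such as ERG and SOX factors such as SOX17 act in endothelial cells. TCF21 belongs to the basic helix-loop-helix proteins that bind E-boxes, of which CAGCTG is a common form.

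The sequences below show 200 bp of mm10 (GRCm38, plus strand) around the GFP- summit of 10 weaker regions, named by the nearest gene. They were picked from the regions with the largest rank differences, the highest GFP- ranks and the lowest difference per listed gene. The aim was to show some of the words that were more frequent in the weaker regions than in the other shared distal regions. Capitals mark CAGCTG, the AP-1 word TGANTCA, the C/EBP word TTGCNNAA, the EBF word CCCNNGGGA and the ETS word AGGAAGT on either strand. The first 3 hold 2 or more copies of CAGCTG.
Heyl, chr4:123228391-123228590: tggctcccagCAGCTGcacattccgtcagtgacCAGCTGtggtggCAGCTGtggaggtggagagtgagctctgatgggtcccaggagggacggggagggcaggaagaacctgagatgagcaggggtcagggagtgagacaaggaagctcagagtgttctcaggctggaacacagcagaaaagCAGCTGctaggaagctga
Mycn, chr12:12995321-12995520: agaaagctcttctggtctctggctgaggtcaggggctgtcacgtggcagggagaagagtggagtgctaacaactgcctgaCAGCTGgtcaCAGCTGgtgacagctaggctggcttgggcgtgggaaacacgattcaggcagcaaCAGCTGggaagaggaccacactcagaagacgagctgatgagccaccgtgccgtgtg
Ltbp2, chr12:84819260-84819459: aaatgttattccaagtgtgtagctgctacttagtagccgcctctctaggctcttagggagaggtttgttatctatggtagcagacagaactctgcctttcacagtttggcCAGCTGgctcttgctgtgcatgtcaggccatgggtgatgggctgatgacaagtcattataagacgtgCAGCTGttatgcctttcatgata
The next 3 hold AP-1 words, in 2 of them together with a C/EBP word.
Tln2, chr9:67585045-67585244: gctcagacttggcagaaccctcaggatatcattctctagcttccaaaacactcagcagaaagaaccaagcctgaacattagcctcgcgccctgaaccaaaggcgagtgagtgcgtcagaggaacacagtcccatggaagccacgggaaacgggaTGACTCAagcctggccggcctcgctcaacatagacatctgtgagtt
Efemp1, chr11:28906389-28906588: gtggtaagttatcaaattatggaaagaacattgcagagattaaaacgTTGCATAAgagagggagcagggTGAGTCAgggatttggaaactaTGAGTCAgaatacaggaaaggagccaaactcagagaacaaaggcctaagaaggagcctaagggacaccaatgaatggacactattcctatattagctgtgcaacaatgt
Col5a1, chr2:27858703-27858902: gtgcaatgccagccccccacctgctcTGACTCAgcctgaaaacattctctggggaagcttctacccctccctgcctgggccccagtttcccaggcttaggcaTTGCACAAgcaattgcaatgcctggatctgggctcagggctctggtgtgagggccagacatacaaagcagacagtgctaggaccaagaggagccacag
Regions near Col15a1 and Thap1 hold EBF words, and those near Cacna2d1 and Cd2 hold words of 3 or more kinds.
Col15a1, chr4:47294047-47294246: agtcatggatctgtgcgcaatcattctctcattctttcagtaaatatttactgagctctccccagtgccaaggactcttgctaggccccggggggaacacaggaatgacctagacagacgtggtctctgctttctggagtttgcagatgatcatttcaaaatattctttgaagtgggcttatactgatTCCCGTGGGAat
Thap1, chr8:26352638-26352837: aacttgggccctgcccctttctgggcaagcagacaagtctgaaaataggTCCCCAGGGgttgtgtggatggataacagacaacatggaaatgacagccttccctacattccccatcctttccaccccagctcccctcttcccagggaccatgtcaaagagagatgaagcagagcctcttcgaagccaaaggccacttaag
Cacna2d1, chr5:16047489-16047688: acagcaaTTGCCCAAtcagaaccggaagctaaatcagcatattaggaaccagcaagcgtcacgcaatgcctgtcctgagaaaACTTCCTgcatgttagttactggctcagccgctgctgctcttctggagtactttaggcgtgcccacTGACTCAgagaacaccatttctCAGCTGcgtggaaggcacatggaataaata
Cd2, chr3:101212987-101213186: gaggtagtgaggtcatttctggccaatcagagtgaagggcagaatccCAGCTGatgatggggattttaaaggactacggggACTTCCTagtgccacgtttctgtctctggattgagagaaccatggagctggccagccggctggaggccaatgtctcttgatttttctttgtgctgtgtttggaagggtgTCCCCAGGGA

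By the rule, a weaker region needs a GFP- rank of at least 20, so the ranks of these regions partly follow from the choice. Their median rank was 58.7 in the GFP- list and 21.7 in the GFP+ list. Over all shared distal regions the medians were 52.8 and 47.8. The median difference of the weaker regions was -30.02 points, against -2.70 over all shared distal regions. The difference was -40 or lower in 1521 of the weaker regions (26.5%) and -60 or lower in 348 (6.06%), while 2867 (49.9%) lay between -20 and -30. In 1418 (24.7%) the GFP+ peak ranked under 10. The share of shared distal regions that were weaker was 12.0% at GFP- ranks of 20 to 40, 18.9% at 40 to 60, 18.4% at 60 to 80 and 12.9% above 80. The plot of both ranks shows a dense band along equal ranks with the weaker regions as a broad tail below it.

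**Figure D1:**
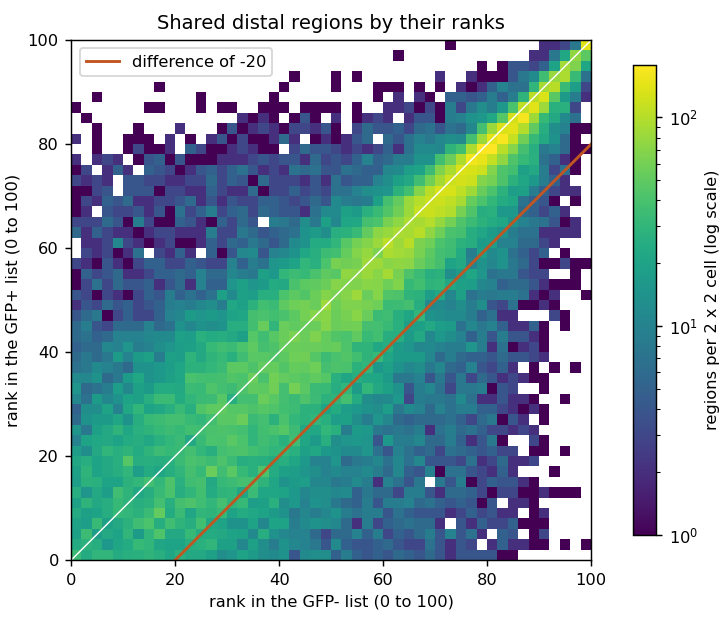
Ranks of the 40904 shared distal regions in the GFP- list (x axis, 0 to 100) and the GFP+ list (y axis, 0 to 100). The colour gives the number of regions per cell of 2 by 2 points on a log scale, the white line marks equal ranks, and the 5745 weaker regions lie on or below the orange line, with a median GFP- rank of 58.7 and a median GFP+ rank of 21.7.

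The region with the largest difference lay 5065 bp upstream of Heyl, a transcriptional repressor that acts within the Notch pathway (chr4:123227559-123229775). It ranked 98.3 in GFP- and 3.83 in GFP+ nuclei, a difference of -94.5, and its peak measured 2217 bp in the GFP- list against 440 bp in the GFP+ list. An intergenic region 53507 bp upstream of Mycn, a growth-promoting transcription factor of the Myc family, followed with ranks of 94.1 and 2.70 (chr12:12993929-12995902). Both hold several CAGCTG words in the sequences shown above. The third was in an untranslated exon of Lrp1, an endocytic receptor, with ranks of 91.3 and 3.18 (chr10:127599750-127600802). The remaining 7 of the 10 largest differences, from -85.8 to -84.1, were nearest to Cmklr1 (the chemerin receptor), Sowahb, Fosl2 (an AP-1 subunit), Tln2 (a talin, linking integrins to actin), Ksr1 (a scaffold of the MAP kinase cascade), Col15a1 (a basement membrane collagen) and Dctn6 (a dynactin subunit). All 10 had a GFP- rank of at least 88.4 and a GFP+ rank of at most 12.5, and the order by summit -log10 p also placed each of them lower in GFP+, with differences of -91.7 to -57.4 points. The Col15a1 region was in an intron of the gene (chr4:47293566-47294825) and ranked 91.8 in GFP- and 7.58 in GFP+ nuclei.

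The weaker regions with the highest GFP- ranks kept a much larger GFP+ peak than these, except the Heyl region, which belongs to both groups. The highest was in an intron of Cygb, a globin of fibroblast-like cells, nearest to the transcript start of Prcd (chr11:116647154-116649619). It ranked 98.8 in GFP- and 56.1 in GFP+ nuclei, and its summit was at the same base in both lists. Regions nearest to Thap1 (98.0 and 50.02), Gpr84 (97.9 and 69.0, in an intron of Zfp385a) and Cyp2s1 (97.9 and 52.5) completed the 5. The weaker regions closest to the threshold were nearest to Fam50b (-20.003), Crebbp (-20.0003) and Clta (-20), and the closest that were left out were nearest to Tbl1xr1 (-19.998), Mylpf (-19.9965) and Cd28 (-19.9945).

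**Figure D2:**
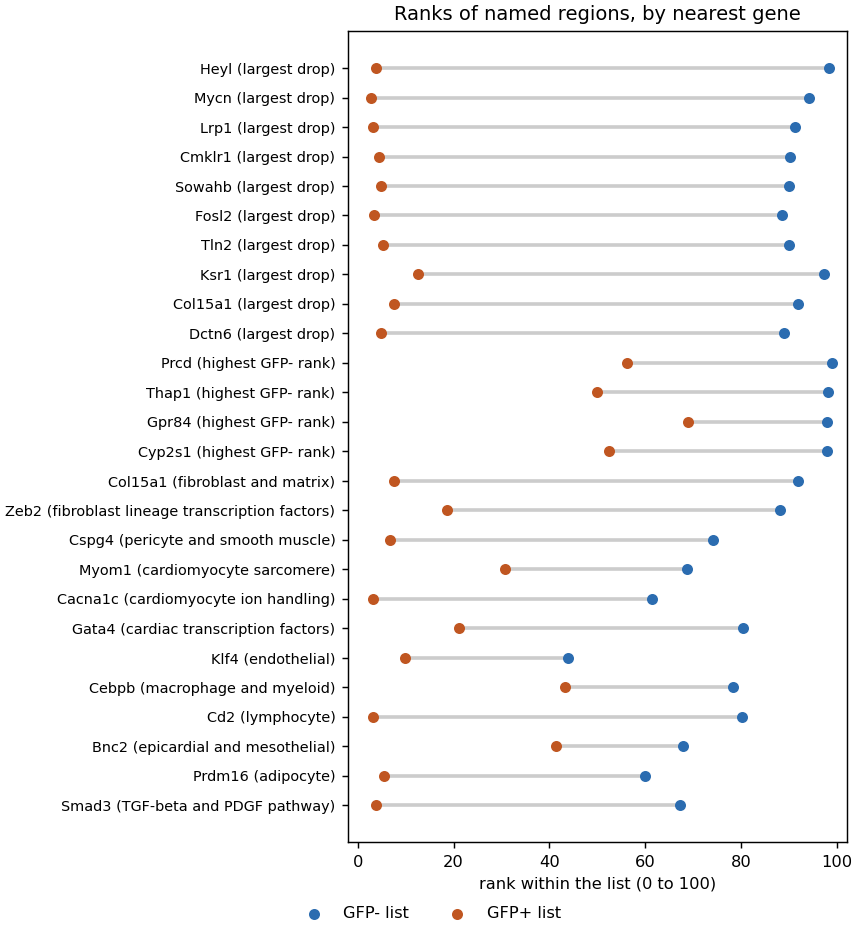
Ranks in the GFP- list (blue) and the GFP+ list (orange) on an axis from 0 to 100 for the 10 regions with the largest drop, for 4 of the 5 with the highest GFP- rank (Heyl, the fifth, is in the first group) and for the region with the lowest difference at the leading gene of each of 12 gene lists. GFP- ranks run from 44.0 near Klf4 to 98.8 near Prcd, and GFP+ ranks from 2.70 near Mycn to 69.0 near Gpr84.

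The GFP+ peaks of weaker regions were both shorter and lower. The median peak length was 572 bp in the GFP- list and 330 bp in the GFP+ list, and the median ratio of GFP+ to GFP- was 0.602 for length, 0.600 for area per bp and 0.397 for area, against 0.938, 0.922 and 0.851 over all shared distal regions. Areas were called separately in each list, so these ratios also carry differences between the lists. By summit -log10 p, 98.6% of the weaker regions ranked lower in GFP+ and 76.4% by 20 points or more. By area per bp, 85.1% ranked lower and 58.3% by 20 points or more. These measures come from the same peaks and are not independent of the choice.

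The position of openness within a region was mostly shared. A single peak of each list made up 94.2% of the weaker regions, and in 75.6% the GFP+ peak lay wholly inside the GFP- peak, against 37.99% of the regions within 20 points. The summits were within 100 bp of each other in 83.3% of weaker regions and 93.1% of those within 20 points, with a median gap of 28 bp and 19 bp. In 314 weaker regions (5.47%) a GFP- peak met 2 or more GFP+ peaks, against 2.09% within 20 points. Since each region was ranked by its best single peak, a GFP+ signal that was split ranked lower, so this difference and those in peak overlap are not independent of the choice. The Gata4 region at chr14:63267030-63270045 is an example, with a GFP- peak of 3016 bp, 3 GFP+ peaks and ranks of 89.0 and 44.6.

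The populations were checked against peaks at the gene starts of cell type markers (TSS +/- 250 bp). Of 51 endothelial genes, 50 had a GFP+ peak at the TSS and 41 a GFP- peak, with median ranks of 86.7 and 79.0. The TSS of Cdh5 itself ranked 17.96 in GFP- and 85.3 in GFP+ nuclei. Of 52 fibroblast and matrix genes, 46 had a GFP- peak there and 24 a GFP+ peak. Other lists differed less. A GFP- and a GFP+ peak were found at 38 and 35 of 38 fibroblast lineage transcription factors, and at 29 and 19 of 34 pericyte and smooth muscle genes. For immune genes the counts were 12 and 10 of 36 macrophage genes, and 7 and 8 of 29 lymphocyte genes. Sarcomere genes had a TSS peak at 41 of 42 in each list, at median ranks of 93.1 and 89.4. Peaks at cardiomyocyte gene starts were thus nearly as numerous and as highly ranked in GFP+ as in GFP- nuclei, and what part other nuclei in the GFP+ sort may have in any GFP+ peak was not tested.

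Weaker regions were placed along the genome much like other shared distal regions. Introns held 3090 (53.8%, 95% Wilson interval 52.5 to 55.1), intergenic sequence 2424 (42.2%), untranslated exons 132 (2.298%) and coding exons 99 (1.72%), and all shared distal regions had 52.6% in introns. The median distance from the GFP- summit to the nearest protein-coding transcript start was 23322 bp, against 22507 bp for the regions within 20 points. By assembled chromosome, the weaker share ran from 12.1% on chromosome 8 to 15.5% on chromosome 19. Intervals here cover counting error only, and neighbouring regions are not independent.

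Weaker regions lay near each other and near peaks that GFP+ nuclei lacked. The nearest shared distal region was itself weaker for 19.8% of weaker regions (18.8 to 20.8), for 13.015% of regions within 20 points and for 11.3% of regions stronger in GFP+. A distal peak of the GFP- list alone lay within 10000 bp of 44.6% of the weaker regions, against 30.7% of those within 20 points and 24.9% of those stronger in GFP+. Distal peaks of the GFP+ list alone showed the other order, at 13.2%, 15.6% and 29.97%.

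When weaker regions less than 20000 bp apart were joined, 156 runs had at least 3 of them. How many runs an equal number of shared distal regions would form regardless of rank was not tested. The longest run, with 9, spanned Fhl2, which encodes a LIM-domain protein of the heart muscle (chr1:43131033-43198545). The 9 Fhl2 regions differed by -54.0 to -23.4 points and were among 29 shared distal regions in the span. Their GFP- ranks ran from 24.99 to 73.7 and their GFP+ ranks from 1.57 to 38.4. A run of 8, among 14 shared distal regions, lay between Anapc7 and Atp2a2, the calcium pump of the sarcoplasmic reticulum (chr5:122439300-122483954). A run of 7, among 9, lay at Garnl3 and Angptl2 (chr2:33164704-33205405). Runs of 6 included one at Col4a1, a basement membrane collagen (chr8:11249438-11278949), among 8 shared distal regions. Another was at Tgm2, a crosslinking enzyme of the matrix (chr2:158159672-158225847), where 6 of the 7 shared distal regions in the span were weaker.

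The weaker regions were nearest to 3635 of the 11231 genes that had a shared distal region. At least 5 were assigned to 94 genes. Cacna1c, the L-type calcium channel of heart muscle, had the most, with 12 of its 35 shared distal regions and a median difference of -30.2 among them. All 12 were in introns of Cacna1c, with GFP- ranks of 37.5 to 79.7 and GFP+ ranks of 3.26 to 44.9. Fhl2 had 11 of 39, Zfp36l1, an mRNA decay factor, 11 of 40, and Col4a1 10 of 33. Large genes with many open regions lead such a count, and as a share the order was different.

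Zeb2, a repressor of epithelial genes that marks mesenchymal cells, had 10 of 15 (66.7%), and Smad3, the transcription factor of the TGF-beta pathway, 9 of 17 (52.9%). The 10 Zeb2 regions ranked 27.4 to 88.1 in GFP- and 6.01 to 49.6 in GFP+ nuclei, and the lowest difference, -69.5, lay 1325298 bp upstream in a gene desert. The Smad3 regions ranked 30.1 to 80.2 in GFP- and 3.79 to 48.1 in GFP+ nuclei. Gata4, a transcription factor of cardiomyocytes and cardiac fibroblasts, had 8 of 20 (40%), with GFP- ranks of 49.0 to 89.0 and GFP+ ranks of 13.6 to 44.6. Of the others of the 10 genes with the most, Gse1 and Tns1 had 15.5% and 14.3%, close to the 14.0% over all shared distal regions. Arhgap26 had 22.0%. Of 3599 genes with at least 4 shared distal regions, 183 had at least 50% of them weaker. For a gene with 4 such regions, 2 weaker ones were enough. How many genes would reach 50% if weaker regions were spread over genes regardless of rank was not tested. Among the 183 genes were Igfbp7, Col6a1 and Fbln1, genes of secreted matrix proteins, with 4 of 5 each. Htra4 and Cdc7 had 4 of 4.

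Fibroblast genes had the highest shares of weaker regions among the lists, with a nearest gene taken as the gene of a region. The study's fibroblast sheet, built from single-cell data of another source, had 209 weaker regions among 747 shared distal regions (28.0%, 24.9 to 31.3), against 14.0% over all. Its median difference over all 747 was -7.78 points. In a hand-written list of 52 fibroblast and matrix genes, 62 of 202 were weaker (30.7%) and 7 were stronger in GFP+, and 31 of the 40 genes with a shared distal region had a weaker one. Col15a1 led with 6 of 10, with differences from -84.3 to -21.1. Col5a1, a fibrillar collagen, had 6 of 11, the lowest 27622 bp upstream with ranks of 72.9 and 9.13 (-63.7). Ltbp2, a latent TGF-beta binding protein family member of elastic fibres, had 4 of 7, the lowest in an intron with ranks of 69.4 and 0.817 (-68.6). Col6a1, a chain of collagen VI, had 4 of 5, the lowest 2399 bp upstream with ranks of 57.3 and 0.666 (-56.6).

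The hand-written lists share some genes, so their shares are not independent. Gata4 is among both the fibroblast lineage factors and the cardiac transcription factors. Ltbp2 is in both the fibroblast and matrix list and the TGF-beta and PDGF pathway list. Transcription factors of the fibroblast lineage had 75 of 330 weaker (22.7%) and genes of the TGF-beta and PDGF pathways 49 of 239 (20.5%). Besides Zeb2 and Gata4, the former with the most were Nfib with 6 of 38 (15.8%, near the 14.0% over all) and Creb5 with 5 of 9 (55.6%). Their lowest differences were -45.5 and -56.3. Of the pathway genes, the receptor gene Tgfbr2 had 6 of 14, and 2 stronger in GFP+. The inhibitory Smad7 had 4 of 30, a share near the 14.0% over all, and 3 stronger in GFP+. Its lowest difference was -68.9. Pericyte and smooth muscle genes had 22 of 128 (17.2%, 11.6 to 24.7), an interval that includes the 14.0% over all. Cspg4, the pericyte proteoglycan NG2, had 3 of 5, all in its introns, with GFP- ranks of 74.0, 86.7 and 70.6 and GFP+ ranks of 6.75, 57.9 and 47.5. Of Pdgfrb, the PDGF receptor of pericytes and fibroblasts, 1 of 2 was weaker (48.9 and 11.8), and of Dpt, a fibroblast matrix gene, 1 of 5 (48.5 and 0.626). Tcf21 and Col6a2 had no shared distal region.

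Cardiomyocyte genes had shares near or below that of all shared distal regions. The study's cardiomyocyte sheet had 66 of 608 (10.9%, 8.62 to 13.6). Sarcomere genes had 24 of 247 (9.72%), ion handling genes 53 of 419 (12.6%) and cardiac transcription factors 62 of 409 (15.2%), and the intervals of these 3 lists include the 14.0% over all. Regions near the sarcomere genes Tnnt2 (6), Myh6 (3), Lmod2 (9) and Tnni3 (1) included no weaker one, and their differences ran from -11.6 to 16.2 points. The sarcomere genes with the most weaker regions were Myom1 (4 of 9), Ttn (3 of 15), Tpm1 (3 of 13) and Tmod1 (2 of 14). Of the cardiac transcription factors these were Gata4 (8 of 20), Ppara (6 of 16), Esrrg (6 of 27) and Meis1 (5 of 18). The sarcomere list also held strong single cases. A region in an intron of Ttn, the giant spring protein of the sarcomere, ranked 71.8 in GFP- and 4.07 in GFP+ nuclei (-67.7, chr2:76898265-76900159). The only shared distal region nearest to Dmd, which encodes dystrophin, was weaker, with ranks of 84.9 and 7.55 (-77.4, chrX:85084137-85085224). Of the 8 regions of Nkx2-5, a transcription factor of the cardiomyocyte lineage, 2 were weaker (-42.9 and -39.6) and the other 6 lay between -16.4 and 16.8.

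Endothelial genes had the lowest shares of the lists. The study's endothelial sheet had 76 weaker regions of 947 (8.03%, 6.46 to 9.93) and 205 that were stronger in GFP+, and the hand-written list 24 of 287 (8.36%) and 83. Weaker regions near the defining genes were mostly of small difference. Cdh5 had 2 of 10, at -23.3 and -20.8, beside a region 5814 bp upstream that was 61.5 points higher in GFP+. Erg, an ETS factor of endothelial identity, had 1 of 6, at -23.9, and Egfl7 and Gpihbp1 had 0 of 9 and 0 of 1. Larger drops were seen at Mecom (-55.5) and Cd36 (-36.2). Klf4, a flow-responsive factor that other cells also use, had 5 of 18.

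The study's sheet of non-specific genes had 339 of 2208 weaker (15.4%, 13.9 to 16.9). The remaining lists were short. Schwann cell genes had 10 of 42 weaker (23.8%, 13.5 to 38.5), adipocyte genes 8 of 49, epicardial and mesothelial genes 4 of 20, lymphocyte genes 9 of 61 and macrophage genes 11 of 81 (13.6%). The intervals of these 5 lists include the 14.0% over all shared distal regions. The lymphocyte gene Cd2 had 4 of 6, the lowest with ranks of 80.2 and 3.28 (-77.0), although no TSS peak of Cd2 was found in either list. Pmp22, a myelin gene that fibroblasts also express, had 2 of 9, the lowest at -67.7. Genes whose TSS had a GFP- peak alone, such as Ltbp2 and Col6a1, also had weaker regions.

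**Figure D3:**
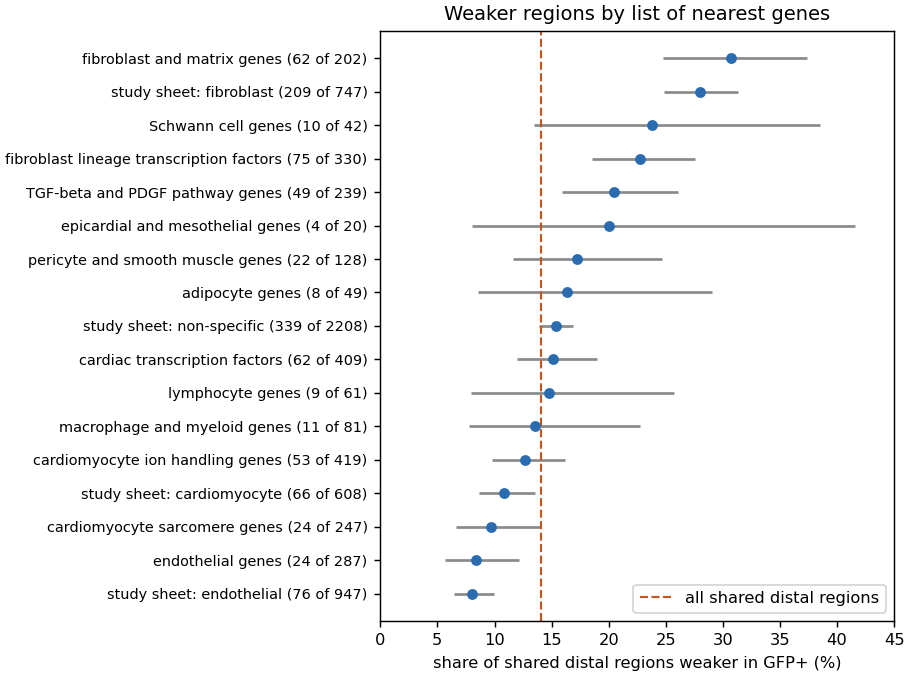
Share of shared distal regions that were weaker in GFP+ nuclei (x axis, %), by list of nearest genes, with the number of weaker and of all shared distal regions in parentheses. Points are shares, bars are 95% Wilson intervals that cover counting error only, and the dashed line is the 14.0% over all. Fibroblast and matrix genes (30.7%) are at the top and the study's endothelial sheet (8.03%) is at the bottom. Some genes are in several lists.

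Gene starts were compared apart from the distal regions. Where both lists had a peak at the TSS, the median rank difference at the TSS was -0.615 for the 5214 genes with no weaker region, -0.896 for 1802 genes with 1, -1.09 for 836 with 2 or 3 and -1.16 for 181 with 4 or more. Over all genes the TSS median was -0.729, and the median over all shared distal regions was -2.70. At the 10 genes with the most weaker regions, the TSS difference ran from -7.48 at Cacna1c to 0.135 at Arhgap26. The median over all shared distal regions of these genes, weaker or not, ran from -29.2 at Zeb2 to -2.35 at Gse1, and these genes were themselves picked for their weaker regions. TSS peaks are mostly near the top of each list, where ranks leave less room to differ. Larger TSS differences were seen at some matrix genes, such as Col15a1, whose TSS ranked 53.5 in GFP- and 14.9 in GFP+ nuclei, and Col5a1, at 98.3 and 72.8.

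Sequence at the GFP- summit was not used in choosing the regions. Plain words were counted on both strands of the 200 bp around it and, for background, in windows 1000 bp to either side. CAGCTG, the E-box word, was present in 26.5% of weaker regions (1523 of 5745, 25.4 to 27.7), 20.6% of regions within 20 points and 17.2% of those stronger in GFP+, against 10.4% in the flanks of the weaker regions. AP-1 words were present in 12.6%, 8.85% and 9.75%, with 5.34% in the flanks. EBF words were present in 6.74%, 3.92% and 5.39%, and C/EBP words in 10.1%, 8.10% and 6.15%. Over all shared distal regions the shares were 21.2% for CAGCTG, 9.43% for AP-1, 4.41% for EBF and 8.26% for C/EBP. For each of these 4 words the distal peaks of the GFP- list alone had a higher share still, at 29.0%, 15.1%, 7.68% and 13.4%. The weaker regions thus stood between the regions within 20 points and the peaks found in GFP- nuclei alone. At least 1 of the 4 words was present in 45.9% of weaker regions and 36.0% of those within 20 points. CAGCTG and AP-1 occurred together in 3.45% and 1.98%.

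Other words were less frequent in the weaker regions than within 20 points. MEF2 words were present in 1.64% of weaker regions (94 of 5745, 1.34 to 1.998) and 3.59% of those within 20 points, both above 0.348% in the flanks of the weaker regions. CTCF words were present in 9.24% and 12.5%. Regions stronger in GFP+ also had lower shares than those within 20 points, at 2.24% for MEF2 and 8.39% for CTCF. A low share of MEF2 or CTCF words was thus not particular to the weaker regions. CAGGTG, an E-box form bound by ZEB repressors, was present in 8.84% of weaker regions, 15.0% of those within 20 points and 14.1% of those stronger in GFP+. The T-box word AGGTGTG was present in 1.85%, 3.33% and 3.08%. In the flanks of weaker regions these last words had shares of 15.2% and 5.04%, so that both were scarcer at the summit than 1000 bp away. The ETS word was present in 7.82% of weaker regions and 5.98% of those within 20 points, and in 15.1% of those stronger in GFP+, but its share in weaker regions divided by that over all shared distal regions was 0.994 when the threshold was set to a difference of -10. The SOX word CCATTGT was present in 2.12%, 2.50% and 5.23%. The PU.1 word GAGGAAGT, which holds the ETS word, was present in 2.45%, 1.59% and 4.83%. The E-box form CAGATG was present in 19.9%, 17.0% and 17.9%, and the ESRR word AAGGTCA in 4.75%, 6.80% and 7.63%. The GATA word TGATAAG (2.35% and 2.66%), the TEAD word GGAATG (15.2% and 14.3%) and the NKX2-5 word CACTTNA (9.92% and 11.0%) were closer between weaker regions and those within 20 points. Median GC content was 52.0% and 51.5%.

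The shares of these words differed with the size of the difference. CAGCTG was present in 23.9% of regions at -40 to -20 points, 31.5% at -60 to -40 and 41.1% of the 348 regions at -60 or less (36.0 to 46.3). AP-1 was at 11.5%, 15.3% and 16.4% in these bins, EBF at 5.94%, 8.53% and 10.3%, and C/EBP at 9.59%, 10.5% and 15.2%. CTCF went from 10.9% to 5.37% and 2.59%, and CAGGTG from 9.991% to 6.22% and 3.74%. At the other end CTCF was also lower, with 8.39% over 20 against 13.1% for 10 to 20, and MEF2 with 2.24% against 3.18%. No MEF2 word was found in the 348 regions at -60 or less, which allows a share of up to 0.862% if a limit of 3 counts is taken, or up to 1.09% by the Wilson interval. The ETS word was lowest near equal ranks, at 5.57% for -10 to 0, and higher on both sides, at 10.6% for -60 or less and 15.1% over 20.

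**Figure D4:**
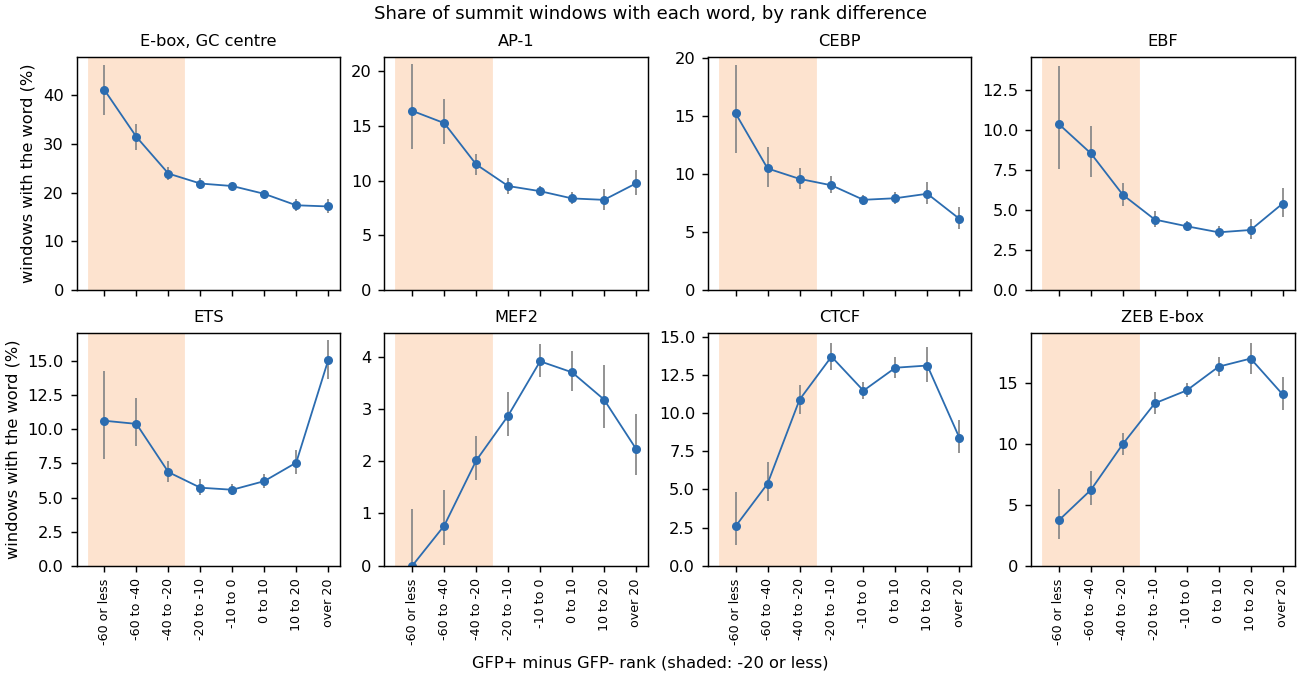
Share of 200 bp windows at the GFP- summit that hold each of 8 words (y axis, %), by the GFP+ minus GFP- rank difference of the region (x axis, 8 bins, weaker regions shaded). Points are shares and bars are 95% Wilson intervals for counting error. The E-box with a GC centre (CAGCTG) falls from 41.1% in the first bin to 17.2% in the last, and MEF2 starts at 0.

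Because a large difference needs a high GFP- rank, the shares were also compared at like GFP- ranks. Among regions ranked 80 to 100 in GFP-, CAGCTG was present in 37.3% of 745 weaker regions and 24.9% of 5010 others, AP-1 in 15.0% and 10.2%, EBF in 12.5% and 5.59%, MEF2 in 0.671% and 3.45%, and CAGGTG in 4.83% and 12.5%. The same order held for these 5 words at 60 to 80 and at 40 to 60. At GFP- ranks of 20 to 40 the shares were closer, with 20.1% and 17.6% for CAGCTG, 8.54% and 7.55% for AP-1, and 3.01% and 3.15% for MEF2. C/EBP was present in 11.8% and 8.06% at 80 to 100, but in 7.86% and 8.45% at 20 to 40. The ETS word was present in 9.80% and 5.85% at 80 to 100. It was not more frequent in weaker regions at 40 to 60 (6.12% and 6.30%) or at 20 to 40 (6.31% and 6.93%). CTCF was present in 4.03% and 5.89% at 80 to 100.

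Within 1000 bp to either side of the GFP- summit, CAGCTG and AP-1 words were most frequent in the central 100 bp, and MEF2 words within 100 bp of the summit. In the central 100 bp, CAGCTG had 100.0 words per 1000 weaker regions and 50 bp, against 28.5 beyond 500 bp, and 70.6 in the regions within 20 points. AP-1 had 40.6 against 15.3, and 25.6 in the regions within 20 points. MEF2 had 4.26 in weaker regions and 11.1 in those within 20 points. For CAGGTG the weaker regions had 24.6 in the centre and 42.3 beyond 500 bp, while the regions within 20 points had 43.4 and 43.3. A word match is a description of the DNA and does not show that a factor was bound.

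**Figure D5:**
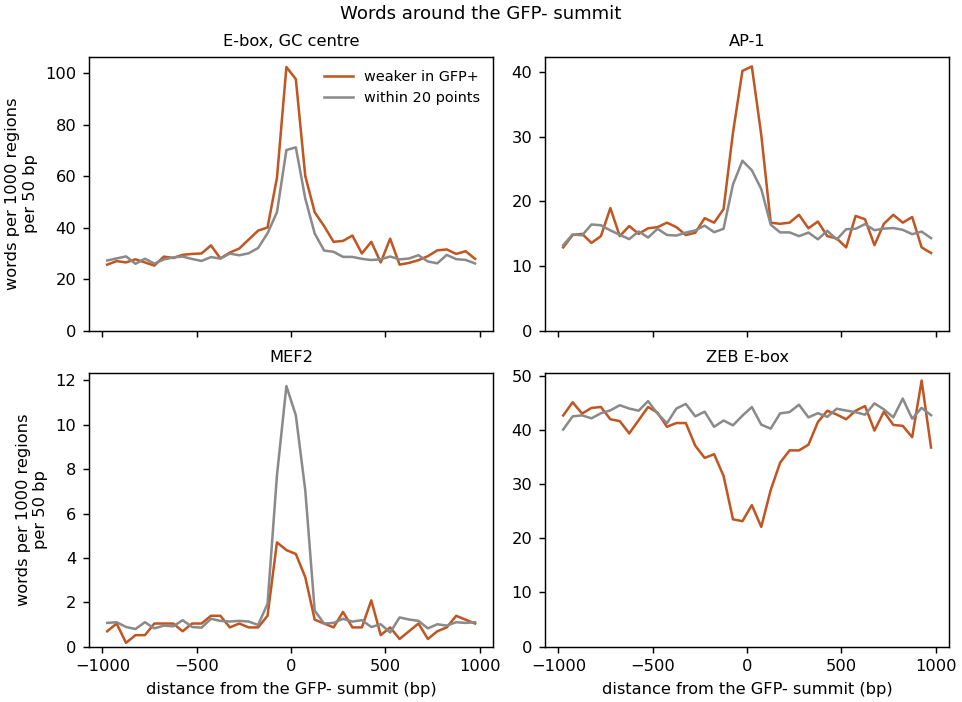
Words per 1000 regions and 50 bp (y axis) by distance from the GFP- summit (x axis, bp) for 4 words, in weaker regions (orange) and regions within 20 points (grey). The E-box with a GC centre and AP-1 reach a higher peak in the weaker regions (100.0 and 40.6 in the central 100 bp, against 70.6 and 25.6), MEF2 a lower one, and the ZEB E-box (CAGGTG) dips at the summit of the weaker regions.

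Word shares were also set beside the gene lists. Near genes of the fibroblast, cardiomyocyte, endothelial and non-specific sheets, CAGCTG was present in 26.3%, 25.8%, 25% and 24.8% of weaker regions. AP-1 was present in 13.9% of the 209 weaker regions near fibroblast genes and 7.02% of the 513 regions there within 20 points, and C/EBP in 15.8% and 7.80%. An AP-1 share of this size was not particular to fibroblast genes. Near endothelial genes AP-1 was at 13.2% in weaker regions and 10.8% within 20 points, and near non-specific genes at 13.9% and 10.3%. C/EBP was at 11.8% and 10.1% near endothelial genes, and at 9.73% and 8.36% near non-specific genes. EBF (4.31% and 4.48%) and ETS words (5.26% and 5.46%) were not more frequent in the weaker regions near fibroblast genes. Near cardiomyocyte genes, AP-1 was present in 5 of 66 weaker regions (7.58%, 3.28 to 16.5), a number too small to tell from the 8.75% within 20 points.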

How the data were processed

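ATAC-Seq peak lists of GFP- and GFP+ heart nuclei, each from 2 replicates, were used. According to the study's methods, the authors trimmed reads with fastp, aligned them to mm10 with bowtie2 and filtered the alignments with samtools. Picard was used to drop duplicates, libraries were brought to a lower common depth, and Genrich, run in its ATAC mode on both replicates at once, called the peaks without chrM, chrY and blacklisted regions. The submitters' processing notes name Bowtie2 2.3.5.1, SAMtools 1.19 and CASAVA 1.4. The peak lists hold no read counts, so the reads behind each peak are not known here. For each peak the deposited lists give a signal (the area under the curve, used for ranking), the -log10 p of its summit, and a score, the area per bp scaled by 1000 and limited to 1000, which most peaks reach. Area grows with peak length and depth, so regions were compared by rank within a list. Ratios of area, length and area per bp between the lists are given as descriptions only.

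Overlapping peaks (1 bp or more) of both lists were merged with Python 3.11.15, numpy 2.4.6 and pandas 2.3.3. Distances used protein-coding transcript starts of GENCODE M21 on mm10 (GRCm38), and each region was assigned to the gene with the nearest start. Area per bp was computed from area and length without the limit. Words were searched on both strands of 200 bp windows (23 words), on assembled chromosomes only. Shares carry 95% Wilson intervals, which cover counting error only. Since replicates were pooled, no test was run.

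The members and gene lists were chosen with earlier results of these data known. The study's gene sheets came from single-cell data of another source. Regions were named by this rule: the 10 largest drops, the 5 highest GFP- ranks, the 10 genes with the most weaker regions, up to 4 genes per list with the most weaker regions, genes the study names, and the 3 regions on either side of the threshold. Igfbp7, Fbln1, Htra4 and Cdc7, the runs, and the examples of split peaks were named after their values were seen. The scripts were tested on simulated data. Alternatives were another ranking measure, filters on area and overlap, other thresholds, other windows and other gene lists. Of the genes that the rule names, some are given only in counts or not reported here.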

Additional observations from a re-analysis of the deposited data

How the results depend on the processing

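Of 122 values recomputed under alternatives, 86 moved by less than the counting error or 1.5 times the count, and 36 moved further. The number of weaker regions was 3082 when the GFP- list was ranked over as many of its strongest peaks as the GFP+ list holds, 3679 with a reciprocal overlap of 50%, 11635 at a difference of -10 and 2878 at -30. The share in introns was 51.1% for peaks with an area of at least 400. The share nearest to genes of the fibroblast sheet (3.64%) was 2.84% when ranked by area per bp, 4.61% with the equal number of peaks, 2.86% at -10, 4.45% at -30 and 1.08% with the hand-written list, and that of endothelial genes (1.32%) was 1.93% by area per bp, 1.73% at an area of at least 400 and 0.418% with the hand-written list. For the same settings in turn (area per bp, equal number of peaks, -10, -30, 400 bp windows), AP-1 words (12.6%) were at 11.2%, 13.7%, 11.0%, 13.8% and 18.1%, and CAGCTG (26.5%) at 24.9%, 30.8%, 24.2%, 30.4% and 37.4%, with 11.5% and 25.1% around the GFP+ summit. MEF2 words (1.64%) were at 2.35%, 1.14%, 2.26%, 1.25% and 2.09%, and at 2.20% for an area of at least 400. ETS words (7.82%) were at 9.05% with the equal number of peaks, 6.76% at -10, 8.90% at -30, 12.95% in 400 bp windows and 7.13% for an area of at least 400. Divided by the share over all shared distal regions under the same setting, the fibroblast share was 1.56 to 2.52, AP-1 1.17 to 1.47, CAGCTG 1.14 to 1.45 and MEF2 0.352 to 0.729 over 14 alternatives each, while 2 ratios crossed 1. ETS was 1.15 as reported and 0.994 to 1.33 over the alternatives, below 1 at a difference of -10, and the share in introns was 1.02 as reported and 0.982 to 1.04, below 1 at an area of at least 400.

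No paired analysis was possible because each population was deposited as 1 peak list pooled from both replicates. Leaving out a replicate was not possible for the same reason, so no difference was set against replicate error. The lists hold no read counts, so the depth behind each peak is unknown here. A GFP- list with more peaks gives the same area another rank than in the GFP+ list. The nearest gene need not be the gene that a region acts on.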
